A study of Saccharomyces cerevisiae with 2 samples.

Results

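The genes described are the ribosome biogenesis genes of budding yeast (Saccharomyces cerevisiae), taken by name as the array annotates them: the numbered UTP, NOP, RRP, NOC, NSA, NUG, DBP, MAK and IMP genes together with YTM1, ERB1, BRX1, SSF1, KRR1, ENP1, ENP2, TIF6, NSR1, MPP10, DRS1, SPB4 and HAS1. The rule found 84 of the 5670 nuclear gene names on the array, with 688 probes, of which 680 passed the filters. By known role 29 act on the small subunit, 30 on the large subunit and 4 on both, 4 are small nucleolar ribonucleoprotein (snoRNP) core proteins or nucleolin, and 7 are exosome subunits. The roles of DBP2 and NOP13 were not settled here. The other 8 match the name pattern but act elsewhere: MAK3, MAK10 and MAK31 form the NatC acetyltransferase, IMP1 and IMP2 belong to the mitochondrial inner membrane peptidase, DBP1 acts in translation, DBP5 acts in mRNA export, and MAK32 was found through maintenance of the killer phenotype.

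Ribosomes are built in the nucleolus, where a long precursor RNA is transcribed, cut, chemically modified and folded while ribosomal proteins join it. The small-subunit processome, which holds the U3 snoRNP and most UTP proteins, forms on the 5′ part of that precursor, and a separate set of factors carries the precursor of the large subunit to the cytoplasm. The genes for these factors are known in yeast as a regulon that is expressed strongly in growing cells and repressed under stress, so how histones lie over them has been of interest.

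The experiment measured levels of histone H3 across the genome by chromatin immunoprecipitation on arrays (ChIP-chip), in which precipitated DNA and input DNA are labelled with different dyes and hybridised to the same oligonucleotide probes. The strain was MDY510, in which H3 carries a Myc tag. Alpha factor, which stops the cycle in G1, had been added, there was no galactose induction, and the chromatin was sonicated and precipitated with a monoclonal antibody to Myc. There was 1 group of 2 arrays, with the precipitate labelled Cy5 and the whole-cell extract (WCE, sonicated input from the same strain) labelled Cy3 on both.

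All values are log2 ratios of Cy5 over Cy3, centred so that the median probe of each array is 0, and a positive value means more Cy5 signal than at the median probe. The labels do not say that the arrays came from separate cultures, so the p-values measure only the spread between these 2 arrays. The arrays tracked each other closely over the members' probes (Pearson r = 0.981 across probes, which are not independent replicates), with a between-array SD of 0.047. Median signals lay between 34318 and 36699 in Cy5 and between 34487 and 36103 in Cy3, and 6.18% to 9.85% of the members' probes were saturated in a channel.

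A check of the channels went against the labels. Mitochondrial DNA carries no histones, yet its 230 probes lay 4.84 ± 0.10 (SD, n = 2) above the nuclear probes in Cy5 over Cy3. The text therefore speaks of the channel labelled IP (Cy5) and the channel labelled WCE (Cy3). With the channels the other way round every sign below would turn, so the direction of H3 occupancy is not settled, while the sizes of the differences do not depend on it.

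Over coding regions the ribosome biogenesis genes lay slightly below the average gene. Of the 82 members with at least 2 coding probes, 47 (57.3%) were lower than the median probe and 21 (25.6%) were higher by limma at an adjusted p of 0.05, while over all 4996 genes 49.1% were lower and 34.9% were higher. Their median was -0.08, the same on each array to 2 decimals, against -0.04 for all genes. The members' mean minus that of the rest of the genes was -0.06 on array 1 and -0.07 on array 2, and with 2 arrays no exact test on this difference can give a p under 0.5. The range ran from -0.43 at YTM1 to 0.32 at NOP15, and 27 members lay below the lower quartile of all genes while 11 lay above the upper quartile.

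These calls rest on the spread between arrays, which was far smaller than the spread between probes of the same gene. The median between-array SD of a member's coding mean was 0.022, while the median SD among the coding probes of a member was 0.26, close to the 0.24 of all genes. In 70 of the 82 members (85.4%) the probes lay on both sides of 0, against 75.5% of all genes. All probes lay below 0 in IMP3, UTP22, UTP9 and YTM1, and all lay above 0 in MAK16, MAK3, MAK32, NOP1, NOP15, NOP6, RRP40 and UTP11. That is 4.88% and 9.76% of the members, against 7.77% and 16.7% of all genes. With normexp background correction of the raw spot signals in place of the scanner's processed signals, the arrays differed more and 0 members passed in each of the 4 comparisons described here. At an unadjusted p of 0.05 that setting gave 0 higher and 15 lower coding regions.

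**Figure D1:**
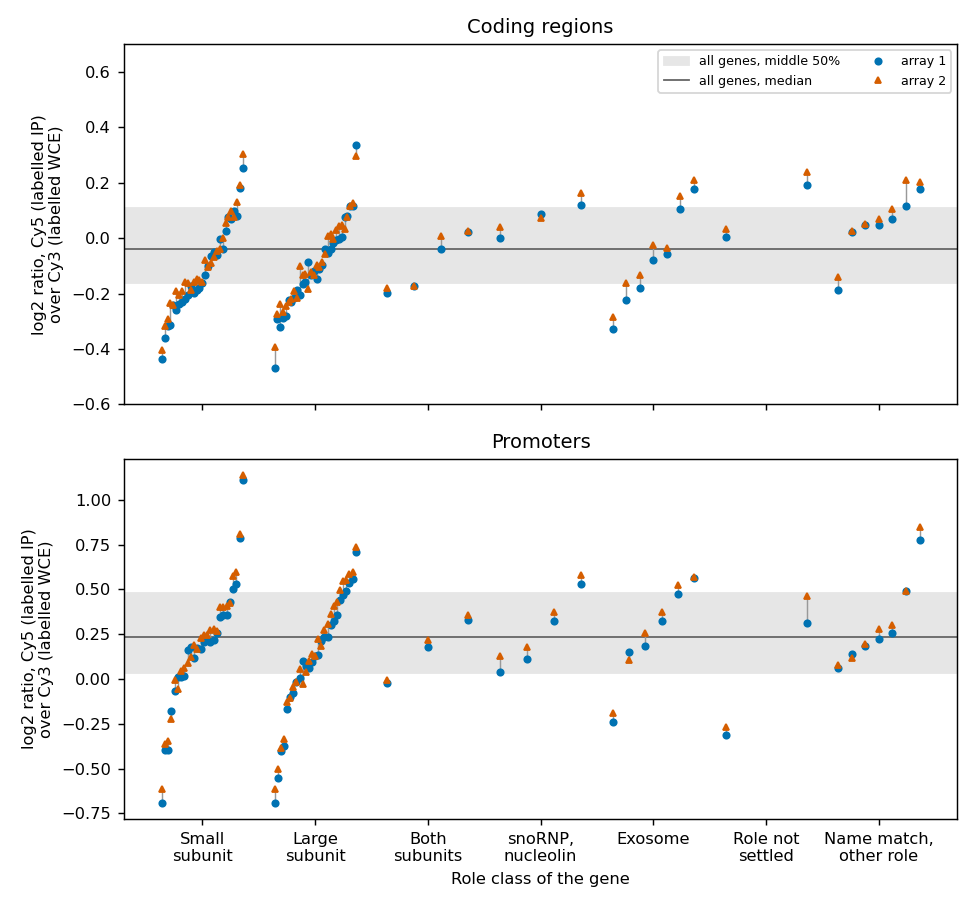
Log2 ratio of Cy5 (labelled IP) over Cy3 (labelled WCE) of each member on both arrays, for coding regions (top) and promoters (bottom), with members sorted within each role class and arrays joined by a grey line. The grey band holds the middle 50% of all genes and the line their median (-0.04 for coding regions, 0.23 for promoters), and most members fall inside the band in both panels.

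Small-subunit factors had a coding median of -0.16, with 20 of 29 lower and 6 higher. Of all genes 49.1% were lower and 34.9% higher. The class had a median of 7 coding probes. At 7 to 10 coding probes 67.1% of all genes were lower, with a median of -0.11. The part of probe number in the counts of this class was not tested. UTP22, which works with RRP7 in the processome, was the lowest small-subunit gene. From its first to its last coding probe it ran from 662379 to 666012 on chromosome 7, in the array's own coordinates. The labels and headers name no genome build for these coordinates. UTP22 measured -0.44 on array 1 and -0.40 on array 2 over 14 probes (adjusted p = 3.27e-82), and its lowest probe stood at -1.14. All 14 probes lay below 0.

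The UTP-A subcomplex, known to be linked to transcription of the ribosomal DNA, comprised UTP4, UTP5, UTP8, UTP9, UTP10 and UTP15 among the members, and every one of these 6 was lower in its coding region. Of all genes 49.1% were lower, and by probe number the share was 44.0%, 67.1% and 88.1% at 4 to 6, 7 to 10 and 11 or more coding probes. UTP5 and UTP15 fall in the first of these bins, UTP4, UTP8 and UTP9 in the second, and UTP10 in the last. UTP10 was at -0.24 on both arrays, UTP15 at -0.26 and -0.19, and UTP4 at -0.17 and -0.19. The UTP-B proteins UTP6, UTP13, UTP18 and UTP21 were also all lower, from UTP6 at -0.36 and -0.32 to UTP18 at -0.10 on both arrays. UTP20, a very long processome protein, was at -0.32 and -0.29 over 26 probes. These groupings within the class were made with the values known and were given no test.

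The MPP10, IMP3 and IMP4 proteins form a complex on the U3 snoRNA, and all 3 genes were lower, with IMP3 at -0.31 and -0.24 over 2 probes and MPP10 at -0.05 and -0.07. The share lower was 49.1% of all genes, 30.2% at 2 to 3 coding probes (as in IMP3 and IMP4) and 44.0% at 4 to 6 (as in MPP10). The median of all genes was -0.04, near the value of MPP10. RRP9, the U3-specific protein, was at -0.19 and -0.15. The 6 higher members of the class were NOP6, UTP11, UTP30, RRP3, UTP7 and DBP8. NOP6 stood highest at 0.25 and 0.30 (adjusted p = 1.96e-37), but on 2 probes that were both saturated. They stood at 0.31 and 0.18, and at 0.20 and 0.43, on arrays 1 and 2, so the rank of NOP6 is uncertain. UTP11 followed at 0.18 and 0.19, also on 2 probes.

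Large-subunit factors had a coding median of -0.12, with 19 of 30 lower (63.3%) and 5 higher (16.7%), against 49.1% and 34.9% of all genes. YTM1, which forms a complex with ERB1 and NOP7, was the lowest member of any class (chromosome 15, 832834 to 833952), at -0.47 and -0.39 over 5 probes (adjusted p = 2.28e-86). Its probes ran from -1.02 to -0.00. Its partners were lower as well, NOP7 at -0.29 and -0.27 and ERB1 at -0.16 and -0.13. At 7 to 10 coding probes, as in NOP7 and ERB1, 67.1% of all genes were lower, with a median of -0.11. At 4 to 6, as in YTM1, 44.0% were lower.

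The DEAD-box helicases DBP6, DBP7 and DBP9 act together early in large-subunit assembly. DBP6 measured -0.32 and -0.24, DBP7 -0.28 and -0.25, and DBP9 -0.17 and -0.13. NOC2 and MAK21, which pair in early particles, measured -0.29 and -0.27, and -0.23 and -0.22, whereas NOC3, the later partner of NOC2, was higher at 0.12 on both arrays. The highest large-subunit gene was NOP15, which acts in processing of the large-subunit precursor RNA. It stood at 0.33 and 0.30 over 3 probes (adjusted p = 4.59e-48), the highest of which stood at 0.71. SPB4, at 0.12 on both arrays, MAK16 and NSA2 were the remaining higher genes of the class, and DBP3 and DBP10 were not called. Groupings within the large-subunit class were also made with the values known and were given no test.

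Factors for both subunits were 2 lower, 0 higher and 2 not called of 4, where 49.1% of all genes were lower and 34.9% higher. At 11 or more coding probes, as in the 2 lower genes, 88.1% of all genes were lower, with a median of -0.17. RRP12, an export factor, was the lowest at -0.20 and -0.18 over 13 probes (adjusted p = 2.18e-18), and RRP5, which acts in cleavages for both subunits, was at -0.18 and -0.17 over 21 probes. RRP14 was the highest at 0.02 and 0.03 (adjusted p = 0.261) and did not pass.

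Among the snoRNP proteins, NOP1 (yeast fibrillarin, the box C/D methyltransferase) was at 0.12 and 0.16 over 2 kept probes (adjusted p = 7.42e-11). That call reversed to -0.05 when the probe removed by the filters was kept. NOP58, also a box C/D core protein, was at -0.00 and 0.04 and did not pass (adjusted p = 0.396). NSR1, the yeast nucleolin, was at 0.09 and 0.07.

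The exosome, which trims the 3′ ends of precursor RNAs, had a coding median of -0.05. Its 7 subunit genes were 5 lower (71.4%) and 2 higher (28.6%), against 49.1% and 34.9% of all genes. RRP6, the nuclear exonuclease, was lowest at -0.33 and -0.29 (adjusted p = 1.28e-45). RRP40, a cap subunit, was highest at 0.18 and 0.21 (adjusted p = 3.01e-19), and the ring subunit RRP43 was next at 0.10 and 0.15.

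The genes that match by name but act elsewhere had a coding median of 0.06, with 5 of 7 higher (71.4%) and 1 lower (14.3%). Among all genes 34.9% were higher and 49.1% lower, and at 2 to 3 coding probes 57.3% were higher. These name matches had a median of 4 coding probes, against 6 for the members, and the part of probe number was not tested. MAK32 was highest at 0.18 and 0.20 (adjusted p = 1.67e-18). DBP5, the mRNA export helicase, was the lower gene at -0.19 and -0.14 (adjusted p = 5.55e-14). Without these genes the members' median was -0.10 instead of -0.08. Of the genes whose role was not settled, NOP13 was at 0.19 and 0.24 and DBP2 at 0.00 and 0.03, which did not pass. NOP10 and MAK31 had 1 coding probe each, with means of -0.14 and 0.15, and were not tested in this region.

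The coding ratio moved with the number of coding probes, which follows gene length. Members with 2 to 3 probes had a median of 0.04 (22 genes), those with 4 to 6 probes -0.06 (27 genes), those with 7 to 10 probes -0.14 (24 genes) and those with 11 or more -0.19 (9 genes). All genes of the same 4 probe numbers had medians of 0.09, -0.02, -0.11 and -0.17. Spearman's rho between ratio and probe number was -0.42 across the 82 members and -0.44 across all genes, as a description across genes that share both arrays. At each of these probe numbers the members' median minus that of all genes was between -0.05 and -0.02, negative at all 4. The shares called lower did not follow this at every length. They were 36.4%, 59.3%, 62.5% and 88.9% in the members, against 30.2%, 44.0%, 67.1% and 88.1% in all genes. At 7 to 10 probes the members' share was thus the smaller, and at 11 or more the shares were nearly equal.

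**Figure D2:**
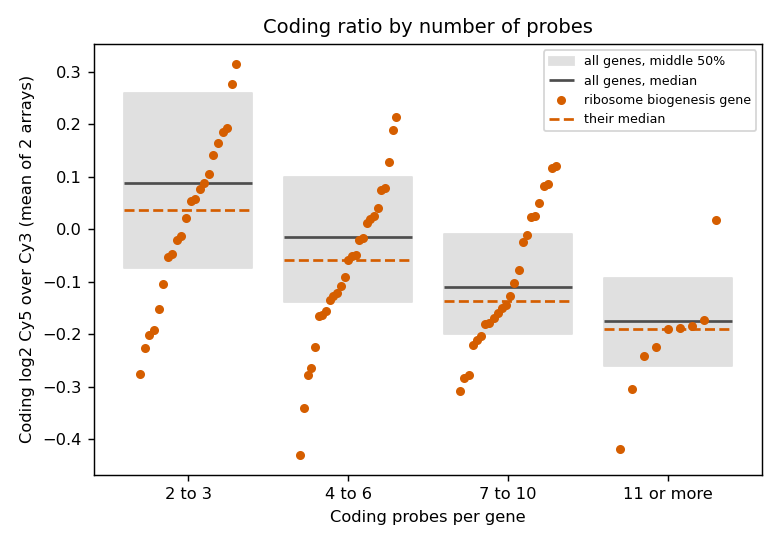
Mean coding log2 ratio of each member (points, mean of 2 arrays, sorted within a bin) by number of kept coding probes, with the middle 50% (box) and median (line) of all genes in the same bin. The members' medians (dashed) fall from 0.04 at 2 to 3 probes to -0.19 at 11 or more, beside 0.09 and -0.17 for all genes.

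At promoters most members lay above the median probe, as most promoters did, and on average slightly below other promoters. A promoter here means the array's probes upstream of the gene between it and its neighbour, and where 2 genes diverge from the same intergenic region its probes count for both. Of the 75 members with such a probe, 53 (70.7%) were higher than the median probe and 12 (16%) were lower, against 70.8% higher and 16.3% lower of all 5175 promoters. Their median was 0.20, against 0.23 for all genes. When each array was instead centred on the median of all promoters, 27 members were higher and 36 lower, with a median of -0.04, so the excess of higher calls depended on that centring. The members' mean minus that of the rest of the promoters was -0.09 on each array.

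Promoters shared with a divergent neighbour had a median of 0.21 in 40 members and 0.29 in all genes. Promoters of the 35 members without such a neighbour had a median of 0.14, and those of all genes 0.17. With the arrays averaged, the members' median was below that of all genes in both kinds. For promoters without such a neighbour the arrays differed in direction. Members and all genes had medians of 0.16 and 0.15 on array 1, and of 0.17 and 0.20 on array 2.

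The highest promoter of any member was that of NOC4, a small-subunit factor that acts with NOP14, at 1.11 and 1.14 (adjusted p = 1.97e-239). Its 3 probes stood at 1.04, 1.37 and 0.96 with distance from the gene and are shared with ASN1, an asparagine synthetase gene, so they cannot be assigned to NOC4 alone. The coding region of NOC4 itself was at -0.04 and 0.00. UTP6 followed among the small-subunit genes at 0.79 and 0.81 over 4 probes shared with RPS18A, a ribosomal protein gene, and the probe farthest from UTP6 stood at 1.57. Among small-subunit promoters without a divergent neighbour UTP14 was highest, at 0.50 and 0.58 on 1 probe.

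The lowest promoter was the only intergenic region that 2 members share. RRP3, a small-subunit helicase, and SSF1, a large-subunit Brix-domain protein, diverge from a region with 1 probe (chromosome 8, 229086 to 229145), which stood at -0.69 and -0.61 (adjusted p = 3.25e-87). The first coding probe of RRP3 beside it was at 0.43 and that of SSF1 at -0.19, so the low ratio did not extend into RRP3. With normexp background correction the shared promoter probe turned positive and did not pass. The other small-subunit genes with lower promoters were UTP9, RRP7 and UTP18, from -0.40 and -0.35 at UTP9 to -0.18 and -0.22 at UTP18.

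Large-subunit promoters had a median of 0.13, with 16 of 27 higher (59.3%) and 6 lower (22.2%), against 70.8% and 16.3% of all promoters. DBP6 was highest at 0.71 and 0.73 (adjusted p = 2.5e-105), on 1 probe shared with RSM19, a mitochondrial ribosomal protein gene. After SSF1, the lowest was NOP4, an RNA-binding protein of early large-subunit particles, at -0.55 and -0.51 on 1 probe that it does not share. NSA1, DBP10, NOP16 and DBP9 were also lower, NSA1 at -0.40 and -0.38 and DBP10 at -0.38 and -0.34.

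Exosome promoters were higher in 5 of 6, with a median of 0.28, where 70.8% of all promoters were higher. RRP46 was highest at 0.57 on both arrays (adjusted p = 8.22e-67), on 1 probe shared with TPC1. RRP45 was the lower gene at -0.24 and -0.19 (adjusted p = 2.55e-11). All 4 snoRNP and nucleolin promoters were higher, from NSR1 at 0.04 and 0.13 (adjusted p = 0.0108) to NOP10, a box H/ACA core protein, at 0.53 and 0.58 (adjusted p = 3.11e-64). Centred on all promoters, NSR1 became lower at -0.15.

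Of the genes for both subunits, HAS1 was highest at 0.33 and 0.36 (adjusted p = 4.59e-26). This rested on 1 of its 3 probes, at 1.13 and 1.18, which was saturated, and without saturated probes the promoter of HAS1 was at -0.05. RRP14, which shares its single probe with the elongation factor gene TEF4, was at 0.18 and 0.22. RRP5 was lowest at -0.02 and -0.00 over 6 probes shared with RPS10B, and did not pass (adjusted p = 0.712).

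The genes that match by name but act elsewhere had higher promoters in 7 of 7, and 70.8% of all promoters were higher too. MAK31 was the highest at 0.78 and 0.85 (adjusted p = 3.48e-132), on 1 probe shared with HTL1. IMP1 was the lowest at 0.06 and 0.08 (adjusted p = 0.0352), and turned to -0.16 when centred on all promoters. DBP2 was lower at -0.31 and -0.27 (adjusted p = 4.18e-19), and NOP13 was higher at 0.31 and 0.46 (adjusted p = 8.21e-33).

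The step from promoter to coding region was close to that of other genes. Of 73 members measured in both regions, 55 (75.3%) had a higher promoter than coding ratio and 11 (15.1%) a lower one, against 71.9% and 17.9% of 4576 genes. The median difference was 0.19 against 0.25. It was widest at NOC4 (1.15 and 1.14), UTP6 (1.15 and 1.13) and DBP6 (1.03 and 0.97), each with a shared promoter and an adjusted p of 1.77e-07 or less. It was most negative at RRP3 (-0.79 and -0.69), NOP4 (-0.53 and -0.50) and SSF1 (-0.47 and -0.38), each on 1 promoter probe and with an adjusted p of 9.31e-06 or less. Without its saturated coding probe SSF1 was at -0.24. With normexp background correction the differences of RRP3, NOP4 and SSF1 turned positive and did not pass. Centred on all genes within each region, 30 members were higher and 37 lower.

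Combining the calls, 25 members had a lower coding region with a higher promoter, which is 34.2% of the 73, and 32.2% of all genes showed that pattern. They included YTM1, NOP7, UTP22, UTP20 and RRP6. A higher coding region with a higher promoter was seen in 16 members (21.9%, against 27.2% of all genes), among them NOP15, NOP6, NOP1 and RRP40. A lower call in both was seen in 7 (9.59%, against 9.81% of all genes), namely DBP9, NOP16, NSA1, RRP45, SSF1, UTP18 and UTP9, and RRP3 was the single member (1.37%) with a higher coding region and a lower promoter, against 4.13% of all genes. Across the 73 members the promoter and coding ratios had a Pearson r of -0.07 and a Spearman rho of -0.07, and across all 4576 genes r was 0.27, both as descriptions across genes measured on the same arrays.

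**Figure D3:**
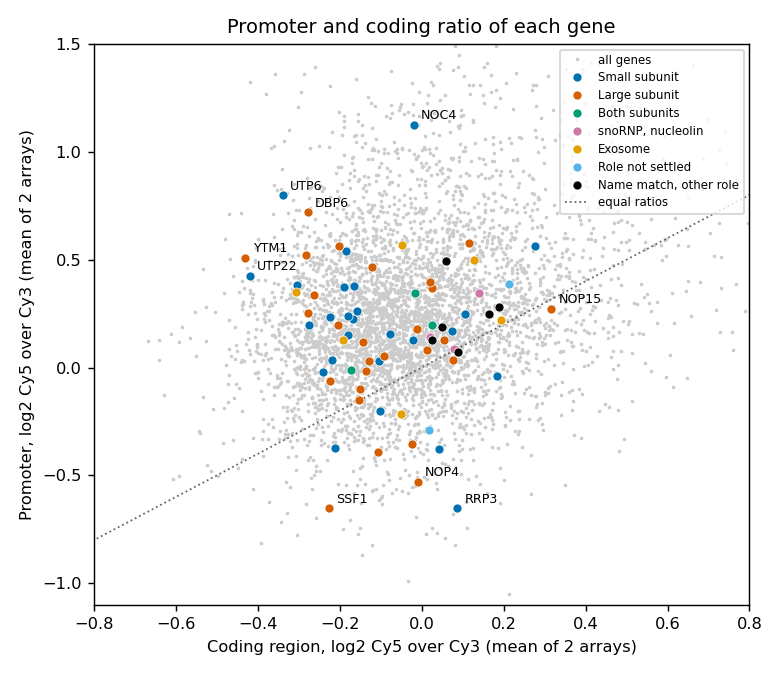
Promoter against coding log2 ratio (Cy5 over Cy3, mean of 2 arrays) of the 73 members measured in both regions, coloured by role class, over all genes in grey; genes beyond the axis limits are not drawn and the dotted line marks equal ratios. Members spread through the cloud of all genes, with NOC4 at the top (1.13) and RRP3 and SSF1 at the bottom (-0.65).

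Within coding regions the middle was lower than the ends. In the 44 members with at least 6 coding probes, which were split in gene order into first, middle and last sections, the median was -0.02 in the first, -0.22 in the middle and -0.07 in the last section. All genes of that length had -0.04, -0.17 and -0.10. Ends minus middle was higher than 0 in 30 of 44 members (68.2%) and lower in 7 (15.9%), against 60.5% and 22.5% of 2070 genes, with a median of 0.17 against 0.09. The mean difference from the rest of the genes was 0.05 on array 1 and 0.06 on array 2.

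Of the large-subunit genes 15 of 17 were higher and 2 lower in this measure, with a median of 0.25, against 60.5% higher and 22.5% lower of all genes. In the small-subunit genes 11 of 18 were higher and 3 lower, with a median of 0.07. The difference between these classes was not tested, since the classes were compared with the values known.

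DBP3, a helicase that speeds cleavage in the first internal spacer, had the widest difference at 0.65 and 0.61 (adjusted p = 2.24e-24). It fell to -0.85 and -0.75 at the coding probe that is the third from the start, while its first probe stood at 0.56 and 0.63. NSR1 was next at 0.48 and 0.45 (adjusted p = 1.08e-20), where again a single probe, at -0.69 and -0.64, lay below 0 amid probes above or near it. The most negative differences were those of UTP5 at -0.23 and -0.21 (adjusted p = 4.22e-12), whose first coding probe stood at -0.94 on both arrays, and of DBP2 at -0.18 and -0.17 (adjusted p = 1.22e-09). In DBP2 the last section lay at -0.21, below the first at 0.08 and the middle at 0.11.

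**Figure D4:**
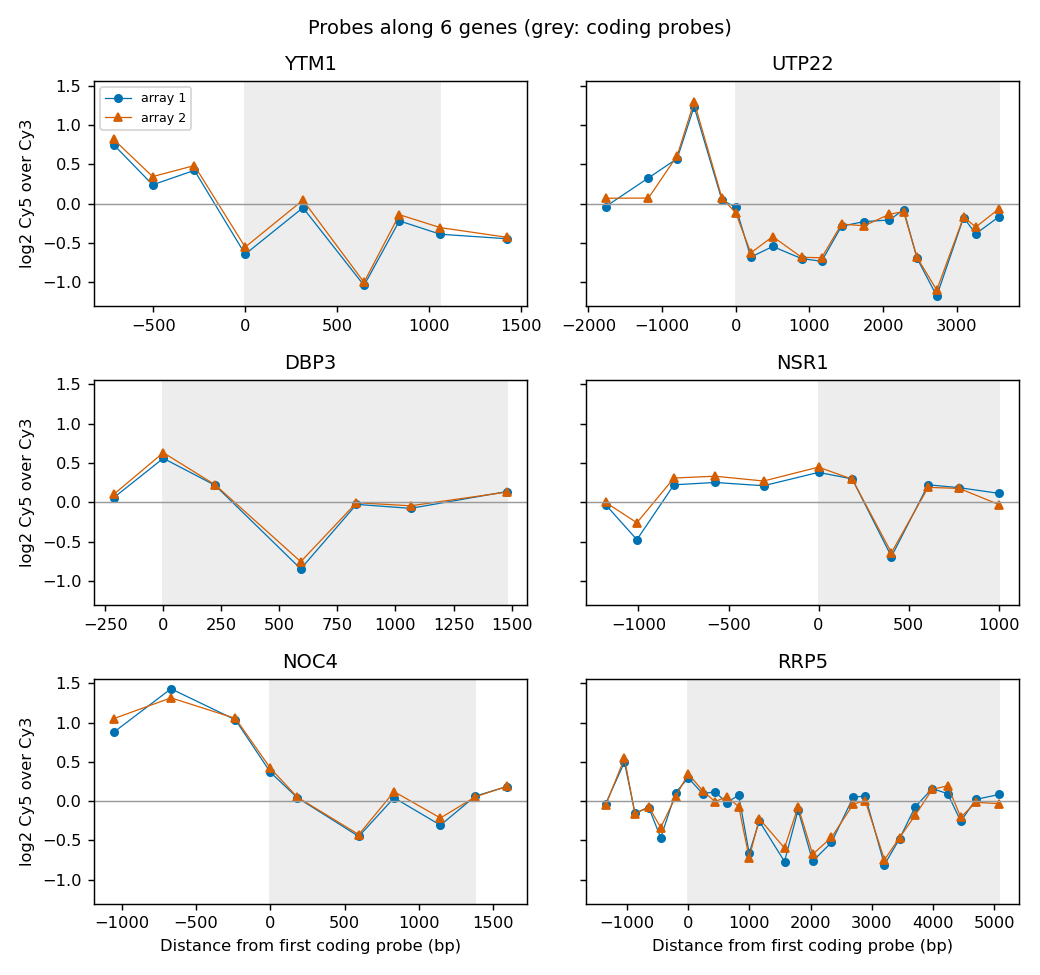
Log2 ratio of Cy5 over Cy3 of every kept probe along 6 members on both arrays, against distance in base pairs from the first coding probe, with the coding probes shaded. Dips and peaks repeat on both arrays, such as the coding probe of DBP3 at -0.85 and -0.75 and the upstream probe of UTP22 at 1.23 and 1.29.

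Averaged by position, the 44 long members went from 0.37 at the third upstream probe (7 genes) through 0.28 at the second (19 genes) and 0.16 at the first (39 genes) to 0.07, -0.06 and -0.19 at the first 3 coding probes. Genes of the same length overall had 0.43, 0.33 and 0.20 upstream and 0.05, -0.08 and -0.14 in the coding region. At the last coding probe members were at -0.00 and all such genes at -0.05. Beyond the end, 18 members of any length had a downstream probe that was not assigned to a neighbouring promoter, with a median of -0.25 on array 1 and -0.27 on array 2, against -0.06 and -0.03 over 1260 genes. Of the 18 members 14 (77.8%) lay below 0, against 55.5% of all genes, the lowest being NOP14 at -0.76 and -0.73 and RRP46 at -0.72 and -0.65, and the highest NOC4 at 0.19 on both arrays. Among genes with at least 6 coding probes the downstream median was -0.17 in 10 members and -0.15 in 445 genes, so the medians lay close there. The means of the same genes were -0.30 and -0.15. These downstream values were summarised after the other results were seen and were given no test.

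**Figure D5:**
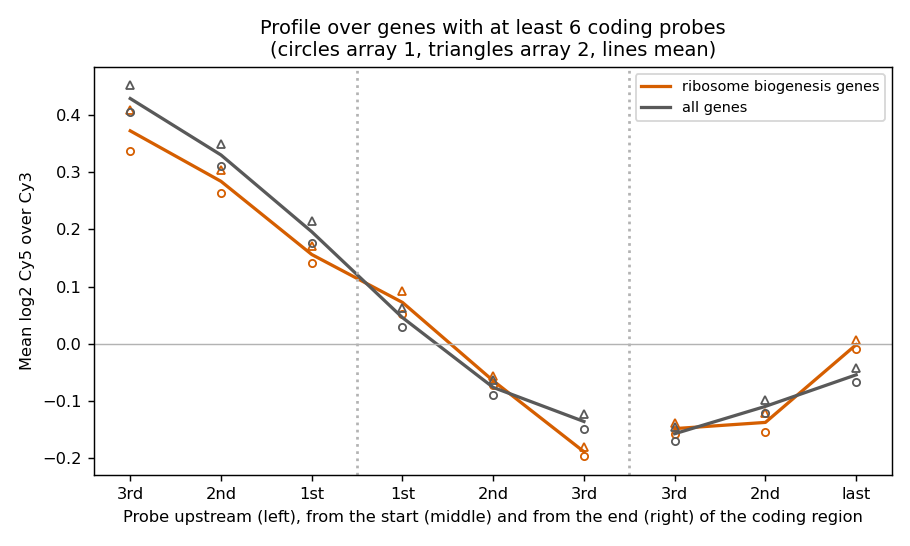
Mean log2 ratio of Cy5 over Cy3 by probe position for genes with at least 6 coding probes, with circles for array 1, triangles for array 2 and lines for their mean. Ribosome biogenesis genes (44, with fewer upstream) and all genes (2063) both fall from upstream (0.37 and 0.43 at the farthest position) into the coding region, and members end higher at the last coding probe (-0.00 against -0.05).

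Other genes of ribosome assembly that the name rule leaves out gave similar coding and promoter values. Of 76 such genes on the array, 70 were measured in each region. Their coding median was -0.10, with 44 lower (62.9%) and 18 higher (25.7%), against 49.1% and 34.9% of all genes. Their promoter median was 0.15, with 46 higher (65.7%) and 16 lower (22.9%), against 70.8% and 16.3% of all promoters. NAN1, a UTP-A protein, had the lowest coding ratio at -0.38 and -0.34, followed by NIP7, a large-subunit factor, at -0.36 and -0.32. LOC1 at 0.39 and 0.42 and TSR2 at 0.38 and 0.42 were the highest. At promoters LTV1 at -0.55 and -0.53 and SAS10 at -0.55 and -0.49 were lowest, and BUD20 at 1.14 and 1.19 and NAF1 at 0.92 and 1.02 were highest. Ends minus middle, measured in 35 genes of this wider list, had a median of 0.11, against 0.17 in the members and 0.09 in all genes. Older names on the array hide 9 genes whose RefSeq symbols fit the rule, such as SIK1 (NOP56), which the wider list also holds. These 9 had a coding median of 0.03 with 4 higher (44.4%) and 3 lower (33.3%), against 34.9% and 49.1% of all genes. Their promoter minus coding median was -0.03, with 4 higher (44.4%) and 2 lower (22.2%), against 71.9% and 17.9% of all genes.

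The products of these genes assemble with ribosomal proteins, whose own genes had higher ratios. The cytosolic ribosomal protein genes were taken by name alone (RPL, RPS and RPP), so the list may hold a gene of another role. They had a coding median of 0.29, with 92 of 102 higher (90.2%) and 5 lower. Of all genes 34.9% were higher and 49.1% lower. Their promoter median was 0.71, with 127 of 137 higher (92.7%) and 1 lower, against 70.8% higher and 16.3% lower of all promoters. Ribosome biogenesis genes averaged -0.36 ± 0.01 (SD, n = 2) relative to the ribosomal protein genes over coding regions and -0.50 ± 0.02 (SD, n = 2) at promoters. The smallest p of an exact test with 2 arrays is 0.5, so this gap was given no p. The ribosomal protein genes also had fewer probes per gene, with a median of 3 coding probes against 6 for the members, and the part of probe number in the gap was not tested.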

How the data were processed

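Each array is a separate sample of 1 group, labelled as replicate 1 and replicate 2, with Cy5 and Cy3 on the same array and no dye swap. Per the file headers, array design 014810 was read with Agilent Feature Extraction 9.1.3.1, and its spot intensity values were deposited. The same headers record subtraction of background, spatial and multiplicative detrending and dye normalisation behind the processed signals. The deposited log2 value table of the authors equalled log2 of the processed Cy5 over Cy3 signal within 5e-06. Linear amplification, given in the labels' protocols, can favour some sequences.

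From the processed signals, log2 ratios were centred on each array's median. Probes with an outlier flag in a channel on an array, or with Cy3 not well above background, were left out, and saturated probes were kept, so 40890 of 41775 probes remained. A gene's coding ratio is the mean of at least 2 probes, its promoter ratio of at least 1, and mitochondrial genes were left out of all gene counts. Ends minus middle needs at least 6 coding probes. Each measure was tested against 0 with limma 3.58.1 in R 4.3.3 (lmFit, eBayes, two-sided) on all genes, with Benjamini-Hochberg adjustment over all of them and a threshold of 0.05. The fit gave each coding mean the same SD, 0.0301, and each promoter mean 0.0455, so adjusted p-values follow the size of the ratio. Simulated data held independent noise of the fitted SD around 0, with known shifts of 0.2 and 0.5 in some genes. The fit recovered 100% of the shifted genes in all 4 comparisons, and 1.48% (promoter) to 7.41% (coding) of its calls were false. Shifts that far above the fitted SD were bound to be recovered, so these shares give no error rate for the calls on the arrays. The number of arrays limits the precision.

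The members and lists were chosen with earlier results of these data known. Within each role class, the genes with the highest and lowest coding and promoter ratios are given in full, and so are the extremes of the other 2 measures. The alternatives tried were normexp background correction (offset 50) with and without loess, other centrings, filters, probe summaries and probe numbers, and other member lists. Promoter sequence motifs were not analysed here, because no promoter sequences were used.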

Additional observations from a re-analysis of the deposited data

How the results depend on the processing

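No paired analysis was possible because there is 1 group. Under normexp, and under normexp with loess, 0 members passed by limma, higher or lower, in all 4 comparisons. At an unadjusted p of 0.05 the counts with normexp were 0 higher and 15 lower for coding, 3 and 0 for promoters, 11 and 0 for promoter minus coding and 4 and 0 for ends minus middle, and with loess 2 and 3, 0 and 0, 12 and 0, and 8 and 0. The members' medians then were -0.095 and -0.021 (normexp, loess) for coding, 0.11 and 0.065 for promoters, 0.080 with loess for promoter minus coding, and 0.10 and 0.067 for ends minus middle. With normexp 52 of 68 coding calls and 48 of 65 promoter calls kept their sign, and with loess 66 and 64 did. The cause was not tested. Centring on all genes of a region gave a coding median of -0.047, promoters with 27 higher, 36 lower and a median of -0.035, and promoter minus coding with 30 higher, 37 lower and a median of -0.060, where all genes lie around 0 by construction.

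The coding median was -0.093 without saturated probes, -0.10 centred on the mode (11 higher), -0.074 in the deposited table, -0.086 with no filter, -0.032 with the median of probes, -0.13 with at least 4 probes (11 higher), -0.12 with 60-nt probes only, -0.10 without genes of other roles and -0.059 with the 9 renamed genes, an alternative chosen after seeing the data. On single arrays it was -0.0823 to -0.0820. Apart from the centring on all genes of a region, the medians and counts listed for the alternatives are those of the members alone. They do not show the distance from all genes under the same setting. Promoters gave 28 higher, 4 lower and a median of 0.23 with at least 2 probes, a median of 0.23 with 60-nt probes and, without divergent promoters, 23 higher and a median of 0.14. Promoter minus coding gave a median of 0.23 with no filter, 0.16 with the median of probes, 0.22 with 60-nt probes and 0.22 without genes of other roles, with more probes 24 higher, 1 lower and a median of 0.34, and without divergent promoters 23 higher, 6 lower and a median of 0.14. Ends minus middle gave 4 lower without saturated probes, a median of 0.19 with no filter and 0.14 with the median of probes, 10 higher and 3 lower with at least 9 probes, 15 higher and 3 lower with 60-nt probes, 0.20 without genes of other roles and, on single arrays, 0.17 to 0.19.

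Among named genes, normexp reversed NIP7 (0.15), NOP6 (-0.061), RRP40 (-0.0097) and RRP6 (0.048) in coding regions, UTP5 in ends minus middle (0.21), the promoters of DBP2 (0.11), IMP1 (-0.0032), LTV1 (0.039), SAS10 (0.078), RRP3 and SSF1 (0.16 on their shared probe), and promoter minus coding of NOP4 (0.33), RRP3 (0.31) and SSF1 (0.34), none of them past the threshold. Region centring reversed the promoters of IMP1 (-0.16) and NSR1 (-0.15), no filter reversed NOP1 (-0.052), and HAS1's promoter was at -0.045 without saturated probes and -0.020 with 60-nt probes.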
